A study of Mus musculus with 2 samples.

Results

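A set of 10 genes that mark basophils, mast cells and eosinophils was followed in mouse hematopoietic stem cells (HSC), the bone marrow cells from which all blood lineages arise. They were chosen by name, with earlier results of these data known. Every probe set of the value table whose annotation gives one of these genes and no other was taken. The 10 genes, of 18193 named on the array, were represented by 12 probe sets, 1 for each of 8 genes and 2 for each of 2 genes (Hdc and Ms4a2). The basophil set held Mcpt8, Hdc, Fcer1a and Ms4a2, the mast cell set Cma1 and Cpa3, and the eosinophil set Prg2, Prg3, Epx and Siglecf. Several of them are shared between lineages: the receptor chains Fcer1a and Ms4a2 and the enzymes Hdc and Cpa3 are made by both basophils and mast cells.

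A first array held RNA of HSC with the label SIRT6 knockout and a second RNA of HSC with the label wild type, and the age given for both is 3 months. Sirt6 is a nuclear NAD-dependent deacylase of histones. The sources used here do not say how the allele was disrupted, how the cells were sorted or whether animals were pooled. With 1 array per genotype there is no replicate, so no test, p-value or SD between samples is given, and each difference compares these 2 RNA samples.

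Basophils, mast cells and eosinophils are granulocytes of allergic and antiparasitic responses, and all 3 descend from HSC through myeloid progenitors of the marrow. Basophils and mast cells carry the high-affinity IgE receptor and release histamine and proteases from granules when it is crosslinked. Eosinophil granules hold cationic proteins and a peroxidase instead. The transcription factors Gata1, Gata2, Cebpa and Mitf direct the choice between these fates, and the granule genes are switched on at different steps of maturation.

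The arrays were on a common scale, with a median signal of 60.7 on the knockout array and 60.8 on the wild-type array. Values are linear MAS5 signals in arbitrary units. A floor of 60.5, the median over all probe sets, separates measured from dim values, and a gene was called measured when above it on at least 1 array. The single Sirt6 probe set gave 174 on the knockout array against 124 for wild type, so the targeted transcript was not lower on the array that carries the knockout label. The sources used here do not say which part of the transcript that probe set covers, and every direction below rests on the label. The brightest probe sets of the Y-linked genes Eif2s3y (316 in knockout, 645 in wild type), Uty (78.0 in knockout, 144 in wild type) and Kdm5d (179 in knockout, 290 in wild type) read lower on the knockout array, a difference that cannot be told apart from the genotype. These were picked after their values were seen. Of 10 HSC and early progenitor markers with a probe set, all were measured. On the knockout array 5 (Fgd5, Hlf, Procr, Tek and Mecom) were at least 1.5-fold lower and 0 at least 1.5-fold higher. The 4 that read higher were Cd48 (log2 0.49), Flt3 (0.19), Cd34 (0.15) and Kit (0.03).

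Of the 10 basophil, mast cell and eosinophil genes, 5 were at least 1.5-fold higher on the knockout array, 1 was at least 1.5-fold lower, 2 lay between and 2 were dim, below the floor in both samples. The background over 11547 measured genes was 1.71% higher by that factor and 2.63% lower, together 4.35%. Of all 18193 named genes, 6646 were dim in both samples. The 10 genes and the thresholds were chosen with earlier results of these data known, so these shares are a reference and not a test. At a size of 2-fold, 3 of the 10 genes were higher (Fcer1a, Siglecf and Mcpt8) and 0 lower, against 0.398% and 0.572% of measured genes. The 8 measured ones were above the floor on both arrays, so none passed through its high array alone. Of the 12 probe sets, 9 were above the floor on both arrays, of which 8 read higher and 1 lower on the knockout array with a median log2 ratio of 0.81. Over the 21544 probe sets of the table that met the same condition, 48.1% read higher and the median was -0.0091. The other 3 probe sets (Prg3, Epx and 1 of Ms4a2) were too dim for a direction. In bulk RNA, more or fewer cells of a type and more or less RNA per cell cannot be told apart.

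**Figure D1:**
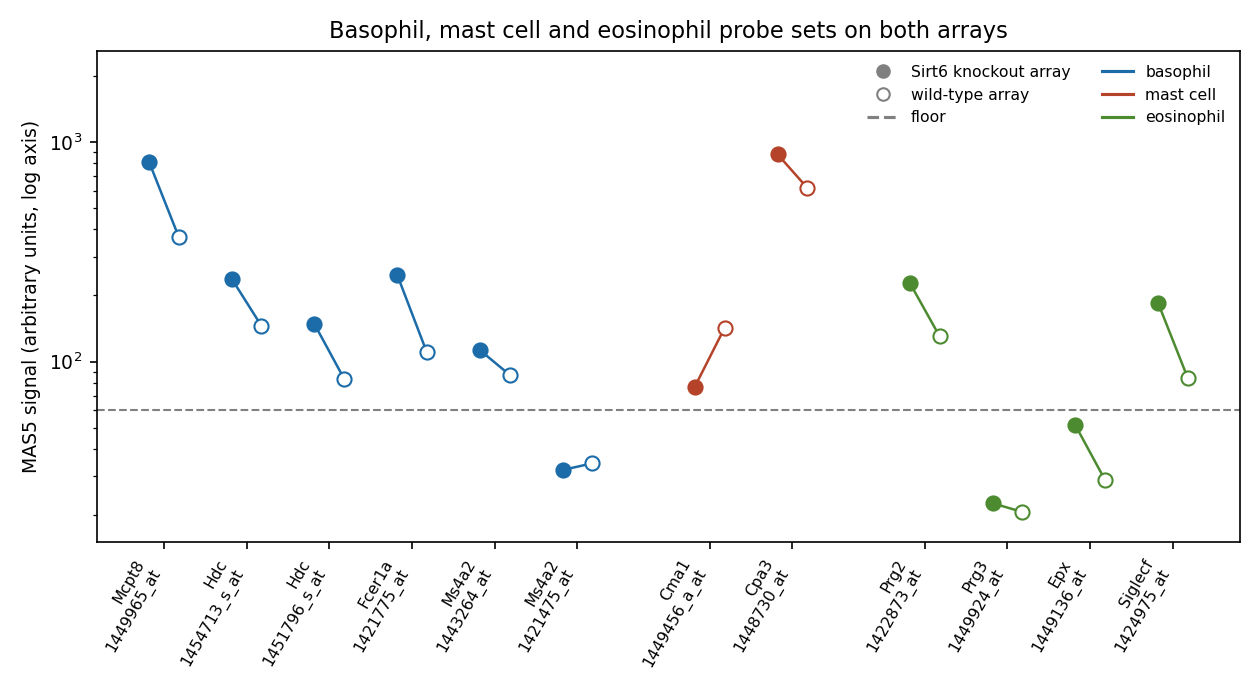
MAS5 signal (arbitrary units, log axis) of each of the 12 probe sets on the Sirt6 knockout array (filled) and the wild-type array (open), coloured by lineage, with the floor of 60.5 as a dashed line. Prg3, Epx and 1 Ms4a2 probe set lie under the floor on both arrays, and Cma1 is the one measured gene that reads lower on the knockout array.

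The IgE receptor is built from an alpha chain that binds IgE, a beta chain that amplifies the signal and a gamma chain shared with other Fc receptors. Fcer1a, the alpha chain, had a signal of 249 on the knockout array against 110 for wild type, a ratio of 2.26 (log2 1.18). Ms4a2, the beta chain, read 113 on the knockout array and 87.0 on the wild-type array on its brighter probe set (log2 0.37). Its other probe set read 32.1 on the knockout array and 34.4 on the wild-type array, under the floor on both. The beta chain therefore rests on 1 measured probe set. Fcer1g, the gamma chain, which monocytes and neutrophils also use, read 508 on the knockout array and 456 on the wild-type array (log2 0.16). Of the 3 chains, only the alpha chain differed by at least 1.5-fold on these arrays, and whether the chains differ from each other was not tested.

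Promoter sequences are shown for the receptor chains Fcer1a and Ms4a2, whose ratios were unlike, for Siglecf, and for the proteases Mcpt8 and Cma1 of one gene cluster, whose ratios were opposite. Each covers 250 bases before to 50 bases after the gene start in RefSeq (GRCm38.p6), read 5′ to 3′ along the gene. Capitals mark every match on either strand to a GATA motif spelled AGATAA, with a last G as AGATAG, with a first T as TGATAA, or with both changes as TGATAG. The windows are chr1:173227180-173227479, minus strand (Fcer1a), chr19:11623670-11623969, minus strand (Ms4a2), chr7:43351091-43351390, plus strand (Siglecf), chr14:56085148-56085447, minus strand (Mcpt8), and chr14:55944626-55944925, minus strand (Cma1).
Fcer1a: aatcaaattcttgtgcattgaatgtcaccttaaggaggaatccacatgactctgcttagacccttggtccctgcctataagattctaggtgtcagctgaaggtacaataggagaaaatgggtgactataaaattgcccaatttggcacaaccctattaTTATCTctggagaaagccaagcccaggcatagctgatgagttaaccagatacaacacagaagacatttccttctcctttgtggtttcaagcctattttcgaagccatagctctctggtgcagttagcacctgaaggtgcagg
Ms4a2: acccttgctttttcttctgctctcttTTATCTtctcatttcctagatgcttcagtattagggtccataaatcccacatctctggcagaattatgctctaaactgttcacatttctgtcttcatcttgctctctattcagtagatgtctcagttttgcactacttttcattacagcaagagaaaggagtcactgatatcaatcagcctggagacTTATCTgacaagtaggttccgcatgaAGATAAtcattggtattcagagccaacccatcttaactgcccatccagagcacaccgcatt
Siglecf: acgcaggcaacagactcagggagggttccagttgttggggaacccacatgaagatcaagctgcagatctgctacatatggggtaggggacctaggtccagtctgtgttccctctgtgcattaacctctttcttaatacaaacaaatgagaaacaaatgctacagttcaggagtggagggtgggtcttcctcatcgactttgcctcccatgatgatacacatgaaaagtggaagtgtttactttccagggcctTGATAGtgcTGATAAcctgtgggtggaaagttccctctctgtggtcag
Mcpt8: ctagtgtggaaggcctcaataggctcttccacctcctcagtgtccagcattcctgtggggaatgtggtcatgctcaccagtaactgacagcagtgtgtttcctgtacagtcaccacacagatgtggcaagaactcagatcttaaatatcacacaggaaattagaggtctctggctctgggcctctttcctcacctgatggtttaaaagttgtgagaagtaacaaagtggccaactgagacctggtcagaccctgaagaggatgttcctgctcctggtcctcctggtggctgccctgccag
Cma1: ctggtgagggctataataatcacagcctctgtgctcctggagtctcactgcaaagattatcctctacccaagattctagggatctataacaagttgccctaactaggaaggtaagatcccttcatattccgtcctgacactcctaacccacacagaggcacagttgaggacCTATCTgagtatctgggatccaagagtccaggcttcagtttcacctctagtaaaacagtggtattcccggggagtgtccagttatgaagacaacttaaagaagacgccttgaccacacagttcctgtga

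RefSeq windows were matched for 9 of the 10 genes, all except Prg2. A GATA match was found in 7 of the 9 windows, against 29.8% of 32851 windows of the same length over all genes. Ms4a2 held 3 matches and Siglecf 2 (just downstream of the start, at positions 3 and 12). Fcer1a, Hdc, Cpa3, Prg3 and Cma1 held 1 each, at -92, -221, -46, -123 and -79 from the start, and Mcpt8 and Epx held 0. The window of Cma1, which read lower on the knockout array, held a match and that of Mcpt8, which read higher, did not. Those of Fcer1a, Siglecf and Hdc, which also read higher, held matches. Whether matches go with the ratios was not tested. The C/EBP motif TTGCNNAA was found in 1 of the 9 windows, that of Fcer1a (10.8% of all windows), the Runx motif TGTGGT in 6 (16.8%) and the PU.1 motif GAGGAA in 3 (28.3%), each on either strand. The motifs were searched separately, and their matches do not overlap in these 9 windows. A match to these letters is a description of the sequence and not a bound site.

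Among the effector genes of basophils, Mcpt8, a serine protease of basophil granules, had a signal of 813 on the knockout array against 369 for wild type, a ratio of 2.20 (log2 1.14). Both values lay far above the floor, at 13.5 times its level for knockout and 6.11 times for wild type. Hdc, histidine decarboxylase, makes histamine from histidine and is expressed in basophils, mast cells and some myeloid progenitors. It read 238 on the knockout array and 145 on the wild-type array on its brighter probe set (log2 0.71). The other read 148 on the knockout array and 83.4 on the wild-type array (log2 0.83). The ratios of the Hdc probe sets differed by 0.12. Over 4632 genes, the pooled SD of single probe-set ratios within a gene was 0.22. That SD holds no variation between samples of a genotype, can include differences between transcripts of a gene, and is not the SD of a difference. Both Hdc probe sets carry the suffix _s_at, which marks probes that can match more than 1 transcript. The median log2 ratio of the 4 basophil genes was 0.93, with 3 of 4 at least 1.5-fold higher, against a median of 0.0023 over all measured genes.

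The mast cell genes went opposite ways. Cpa3, carboxypeptidase A3, a granule exopeptidase that is also expressed in early basophil and mast cell progenitors, read 878 on the knockout array and 617 on the wild-type array (ratio 1.42, log2 0.51), short of 1.5-fold. Cma1, a chymase of connective tissue mast cells in the mouse, read 76.8 on the knockout array and 142 on the wild-type array, so that wild type was 1.85-fold higher (log2 -0.89). The knockout value of Cma1 was 1.27 times the floor. With 1 gene on each side, the median of the mast cell pair (-0.19) describes neither.

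Of the eosinophil genes, Prg2 and Siglecf were measured. Prg2, the major basic protein of eosinophil granules, read 227 on the knockout array and 130 on the wild-type array (ratio 1.75, log2 0.81). Siglecf, a sialic acid-binding surface receptor of mouse eosinophils and alveolar macrophages, read 185 on the knockout array and 84.0 on the wild-type array (ratio 2.20, log2 1.14). Epx, the eosinophil peroxidase, read 51.3 on the knockout array and 28.9 on the wild-type array, both under the floor. Prg3, a homologue of Prg2 in the same granules, read 22.6 on the knockout array and 20.7 on the wild-type array, also under the floor. Thus 2 of the 4 eosinophil genes read at least 1.5-fold higher and the other 2 could not be compared at their signal level.

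**Figure D2:**
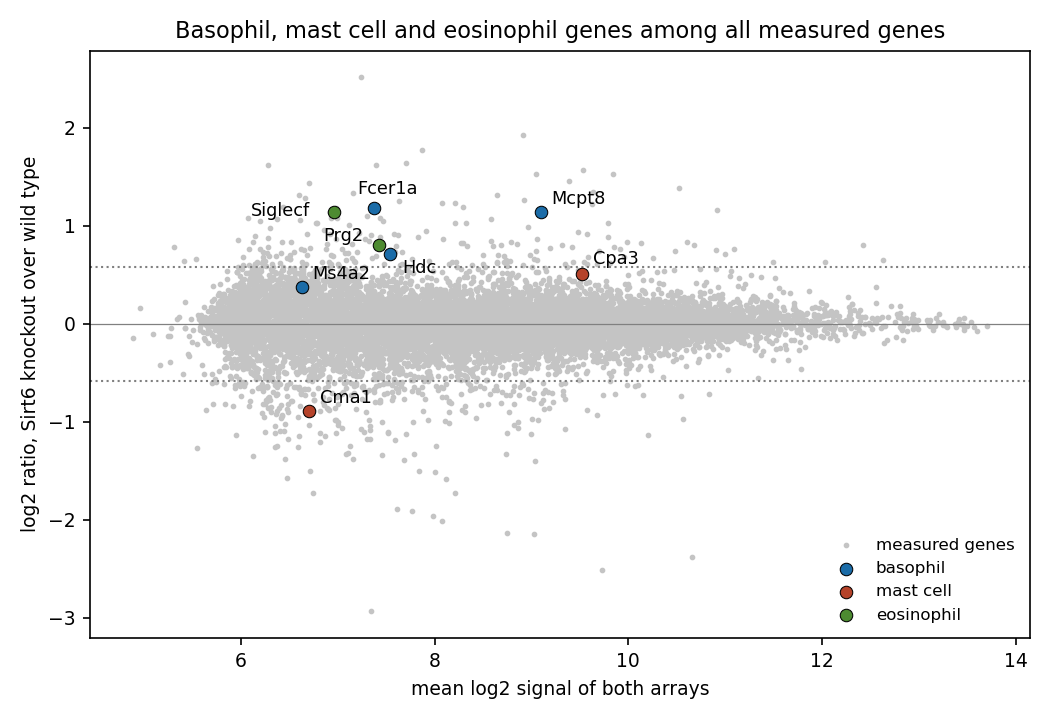
Log2 ratio of the knockout over the wild-type array against the mean log2 signal of both arrays, for 11547 measured genes (grey) and the 8 measured basophil, mast cell and eosinophil genes (coloured by lineage), with dotted lines at 1.5-fold. Fcer1a, Siglecf and Mcpt8 lie highest, between log2 1.14 and 1.18, and Cma1 lies at -0.89.

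Ratios spread more among dim genes, so the same counts were taken at matched brightness. Over the brightness range of the 8 measured genes (mean log2 signal 6.63 to 9.52), 1.82% of 6651 genes passed 1.5-fold upward and 3.04% downward. In the dimmer portion of that range, below a mean log2 signal of 8, the shares were 2.49% and 4.29% of 2847 genes. Of the 6 basophil, mast cell and eosinophil genes in that portion, 4 passed it upward and 1 downward. The calls of dim genes depended on the handling of low values: with 1 floor added to each signal in place of the floor, Hdc and Cma1 no longer reached 1.5-fold, and Fcer1a (log2 0.86) and Siglecf (0.76) no longer reached 2-fold. With the floor at percentile 75 only 3 of the 10 genes were measured, of which Mcpt8 was at least 1.5-fold higher and Fcer1a had a lower bound of log2 0.06 only.

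Further genes of the same lineages read in both directions. Of 15 other basophil genes, 13 had a probe set of their own and 8 were measured. Of these, 1 passed 1.5-fold upward and 1 downward, around a median log2 ratio of 0.03. The higher one was Lmo4, a LIM domain cofactor, at 536 on the knockout array and 340 on the wild-type array. The lower one was the chemokine Ccl3, at 126 on the knockout array and 219 on the wild-type array, with the water and glycerol channel Aqp9 (log2 -0.46) and the inhibitory receptor Cd200r1 (-0.15) next in size. Of 15 other mast cell genes, 13 had a probe set of their own and 5 were measured. Of these, 2 passed 1.5-fold upward, around a median of 0.55. That median was 0.31 after quantile normalization, 0.28 after centring each array on its median and 0.80 with the floor at percentile 75. The 2 were Gzmb (514 on the knockout array, 285 on the wild-type array) and Ctsg (7235 on the knockout array, 4141 on the wild-type array), serine proteases that cytotoxic lymphocytes and neutrophil precursors also make. Ltc4s, the leukotriene C4 synthase, had a log2 ratio of 0.55, and Slc18a2, which loads histamine into granules, of -0.46.

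Over all 18193 named genes, 6646 were dim on both arrays. Of the further genes with a probe set, 5 of 13 basophil, 8 of 13 mast cell and 5 of 7 eosinophil genes were dim. Among these, the mast cell tryptase Tpsb2 (52.0 on the knockout array and 42.5 on the wild-type array), the basophil receptor Cd200r3 (31.2 on the knockout array and 23.3 for wild type) and the eotaxin receptor Ccr3 (16.5 on the knockout array and 8.11 on the wild-type array) stayed below the floor in both samples. These 3 were picked after their values were seen. The tryptases Tpsb2 and Tpsab1 are close copies whose probe sets may not tell them apart. Of 13 other eosinophil genes, 7 had a probe set naming no other gene and 2 were measured. The 2 were Cd24a (log2 -0.11) and Adgre1 (-0.10), neither of them particular to eosinophils.

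**Figure D3:**
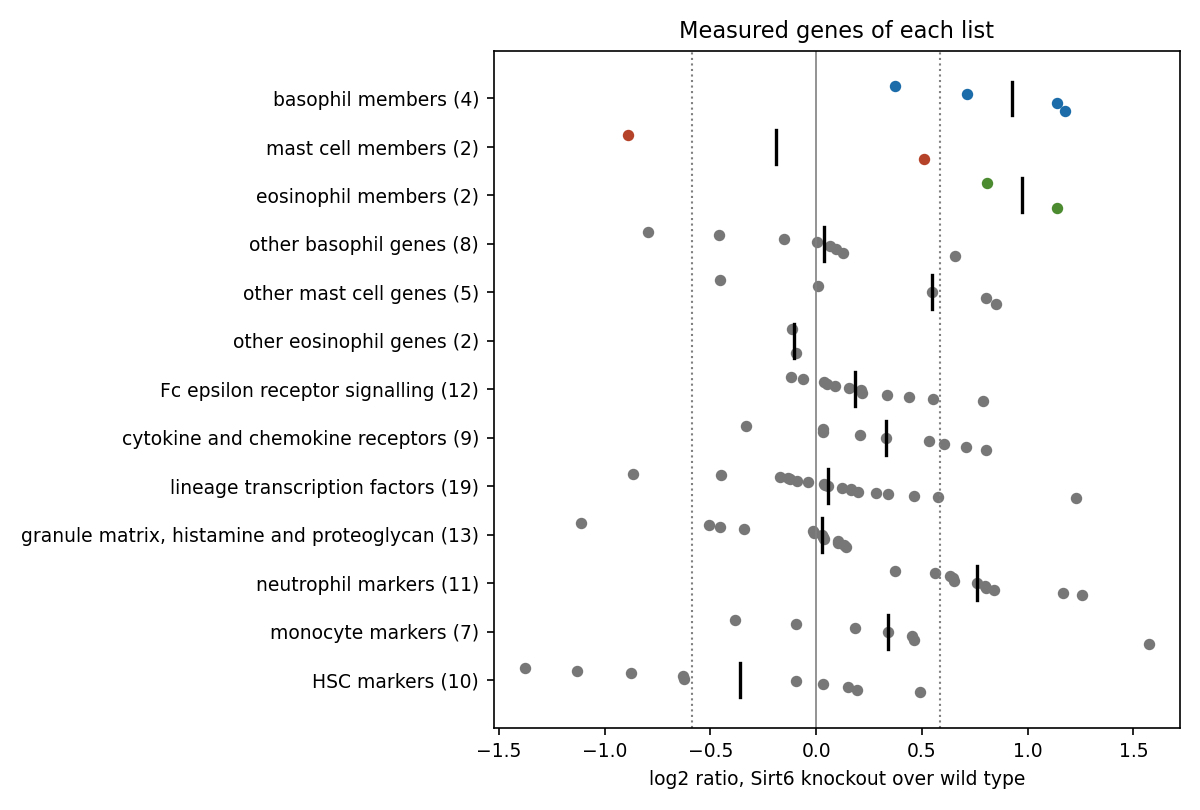
Log2 ratio of the knockout over the wild-type array for each measured gene (point) of each list, with the list's median as a black bar, dotted lines at 1.5-fold and the number of measured genes in brackets. Medians are 0.93 for the basophil set and 0.97 for the eosinophil set, 0.03 for other basophil genes and 0.76 for neutrophil markers.

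In a wider list of cytokine, chemokine and histamine receptors, 3 of 9 measured genes passed 1.5-fold upward and 0 downward. The median log2 ratio of 0.33 was the value of the histamine receptor Hrh2. Csf2rb, the beta chain shared by the receptors for interleukin 3, interleukin 5 and GM-CSF, read 2169 on the knockout array and 1241 on the wild-type array (log2 0.81, and 0.83 on its other probe set). Csf2rb2, its mouse paralog used with interleukin 3 alone, read 514 on the knockout array against 315 for wild type (0.71), and the near-identical pair may share probe signal. Il3ra, the interleukin 3 receptor alpha chain, read 413 on the knockout array and 271 on the wild-type array (0.61). Il7r had a log2 ratio of 0.53. Csf2ra, the alpha chain of the GM-CSF receptor, was the only measured gene of the list that read lower (-0.33, and -0.25 on its other probe set). Il5ra, the alpha chain that makes eosinophils respond to interleukin 5, was under the floor on both arrays (16.8 on the knockout array, 16.4 on the wild-type array). Kit, the stem cell factor receptor that mast cells need and HSC also carry, read 1746 on the knockout array and 1709 on the wild-type array (0.03).

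Among 19 measured lineage transcription factors, 1 passed 1.5-fold upward and 1 downward, around a median log2 ratio of 0.06. The higher one was Cebpa, needed for granulocyte fates, at 412 on the knockout array and 176 on the wild-type array (log2 1.23). Gata2, which acts in HSC and in basophil, mast cell and eosinophil precursors, read 2964 on the knockout array and 2588 on the wild-type array (0.20), and its other probe set gave -0.23. Gata1, a factor of eosinophil, mast cell and erythroid cells, read 125 on the knockout array and 102 on the wild-type array (0.28). Mitf, a mast cell factor, read 213 on the knockout array and 232 on the wild-type array (-0.12). Runx1 was the lower one by its brightest probe set (-0.87), and over the 5 that were measured the ratio ran from -0.87 to 0.28. Id1 was at least 1.49-fold higher, against a wild-type value under the floor, and Irf8 had a log2 ratio of 0.46.

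Signalling genes downstream of the IgE receptor passed 1.5-fold upward in 1 of 12 measured cases and downward in 0, around a median log2 ratio of 0.18. The 1 gene was Lat2, an adaptor of mast cells and B cells, at 511 on the knockout array and 296 on the wild-type array (log2 0.79), while its other measured probe set gave -0.39. The kinase Btk had a log2 ratio of 0.55, the adaptor Gab2 of 0.44 and the exchange factor Vav1 of 0.34. Of 13 genes of the granule matrix, histamine handling and granule release, 0 passed 1.5-fold upward and 1 downward, around a median of 0.03. The 1 gene was Csgalnact1, an enzyme of chondroitin sulfate synthesis, at 292 on the knockout array and 630 on the wild-type array (-1.11), and Hnmt, which inactivates histamine, had a ratio of -0.51. Snap23, of the membrane fusion machinery, had one of -0.34 on its brightest probe set, and its probe sets ran from -0.77 to -0.09.

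Markers of several other blood cell types also differed between the arrays. Of 12 neutrophil markers, 11 were measured and 9 were at least 1.5-fold higher on the knockout array, with a median log2 ratio of 0.76, and their summed signal was 36305 on the knockout array and 22746 on the wild-type array. Mmp8 alone among them was dim, at 46.6 on the knockout array and 29.1 on the wild-type array. The summed signal of the 8 monocyte markers with a probe set was 2781 on the knockout array and 1662 on the wild-type array, 1 of 7 measured genes being past 1.5-fold upward (F13a1, log2 1.57), with a median of 0.34. Without F13a1 the monocyte sums were 1509 on the knockout array and 1234 on the wild-type array. Csf1r had a log2 ratio of 0.45 on its brightest probe set, short of 1.5-fold, and of 0.69 and 0.76 on its others. B cell markers read higher in 5 of 5 measured cases (median 0.54), led by Vpreb1 (1.78) and Igll1 (1.62), and summed to 1218 on the knockout array and 627 on the wild-type array. That median was the value of Cd79a, a lower bound because its wild-type signal lay under the floor. The B cell median was 0.81 with the floor at percentile 25 and 0.31 with the floor at percentile 75. Erythroid markers read lower in 6 of 6 measured cases (median -0.27), of which 2 were at least 1.5-fold lower, Car1 (-1.96) and Aqp1 (-0.98). They summed to 3407 on the knockout array and 4715 on the wild-type array. Most of these sums came from Car2, at 2838 on the knockout array and 3652 on the wild-type array, short of 1.5-fold. Medians were 0.13 over 5 measured megakaryocyte markers, 0.22 over 3 measured T and NK cell markers and -0.36 over the 10 HSC and early progenitor markers. Of the megakaryocyte markers, 1 passed 1.5-fold upward (Itga2b, 0.88) and 2 downward (Vwf, -0.87, and Pf4, -0.76), so their median describes neither side. Of the T and NK cell markers, 1 passed it upward (Thy1, 0.90) and 0 downward. For the 10 basophil, mast cell and eosinophil genes the sums were 2854 on the knockout array and 1735 on the wild-type array. The part of such cells in the differences of the basophil, mast cell and eosinophil genes was not tested.

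Several of these genes sit in clusters of related genes, and 6 annotated protein-coding neighbours on each side were compared in RefSeq order, a window chosen after the values were seen. Of 101 distinct neighbours, 79 had a probe set of their own and 43 were measured, around a median log2 ratio of 0.04. Of the measured neighbours, 5 were past 1.5-fold upward (11.6%) and 1 downward. Over all measured genes the shares were 1.71% upward and 2.63% downward, and whether neighbours differ from them was not tested. The 5 were Ms4a3 (log2 1.17), next to Ms4a2, Ctsg (0.80), next to Mcpt8, Atp8b4 (0.74), near Hdc, Mpo (0.65), near Epx, and Ms4a6c (0.63), near Ms4a2. The lower one was Ube2l6, near Prg2, at least 1.52-fold higher in wild type against a knockout value under the floor. Ms4a3, Ctsg and Mpo are also neutrophil markers of the list above.

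Within the protease cluster on chromosome 14, Mcpt8 at log2 1.14 and Cma1 at -0.89 differed by 2.03 on the log2 scale. Of the mast cell proteases between them, Mcpt4 read 67.1 on the knockout array and 66.7 on the wild-type array, and Mcpt1 (29.2 on the knockout array, 15.3 on the wild-type array) and Mcpt2 (60.4 on the knockout array, 39.7 on the wild-type array) stayed below the floor in both samples. On chromosome 2, the homologues Prg2 and Prg3 lie side by side, 1 of them measured and the other under the floor.

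**Figure D4:**
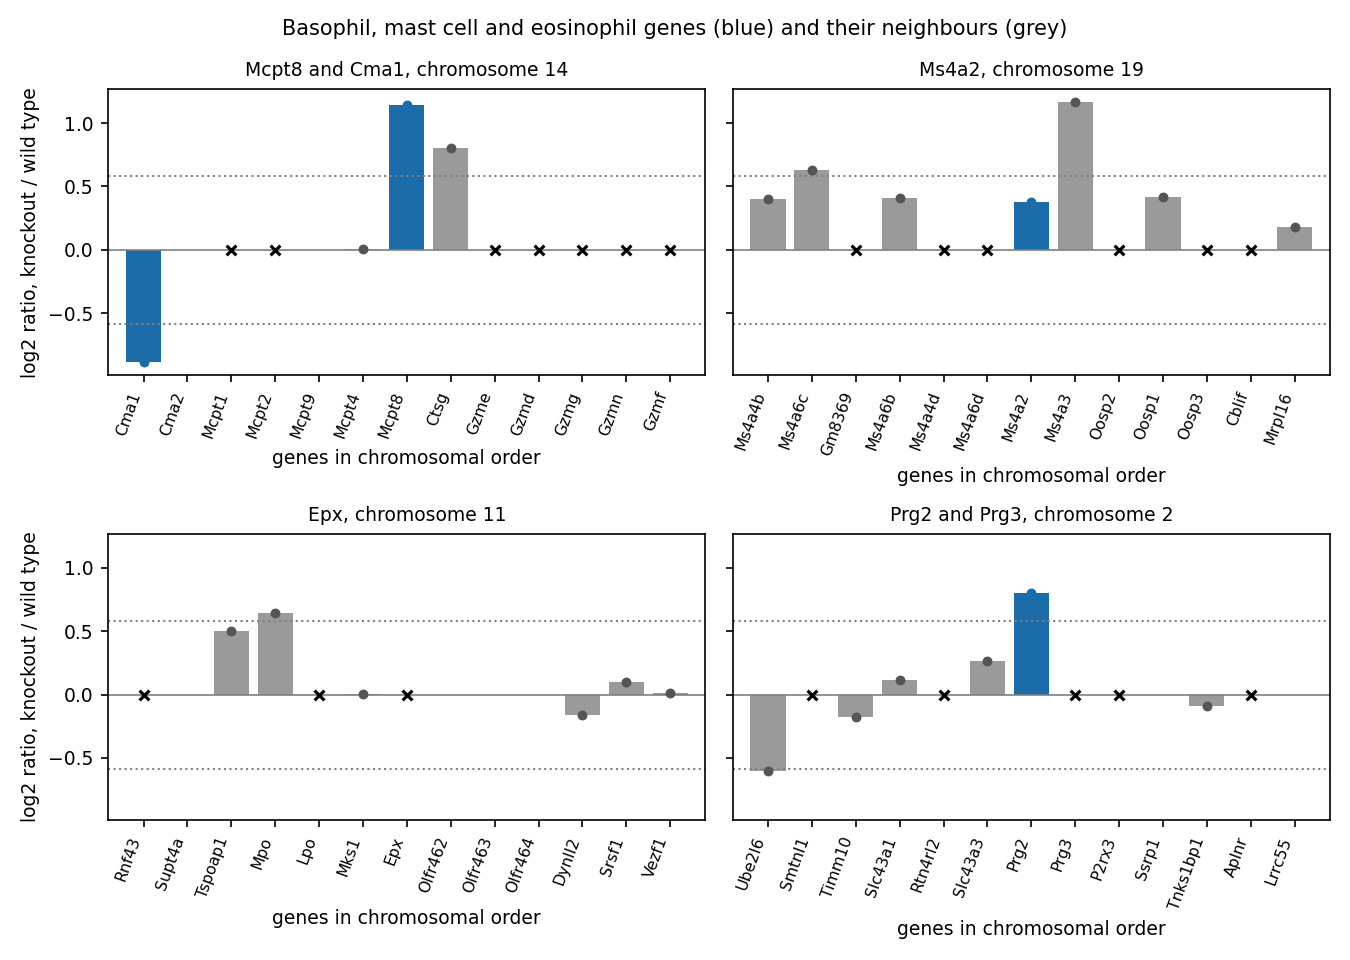
Log2 ratio of the knockout over the wild-type array along gene order at 4 loci, as bars ending in a dot, with basophil, mast cell and eosinophil genes in blue, other genes in grey, dotted lines at 1.5-fold, a cross for genes under the floor on both arrays and a gap for genes with no probe set of their own. Mcpt8 (1.14) and Ctsg (0.80) stand beside each other while Cma1 is at -0.89, and Ms4a3 (1.17) stands next to Ms4a2 (0.37).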

How the data were processed

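RNA of 2 HSC samples, 1 per genotype, was hybridised to Affymetrix arrays. The authors deposited 1 linear intensity per probe set and array, made with MAS5 per the submitters' processing notes. The scaling target, version and detection calls are not stated there. Of 45037 probe sets, 34945 named 1 gene in the platform annotation, and 932 naming several and 9160 naming none were left out. A gene was counted as having a probe set only where one names it alone. Another 2 genes that carry one of the 10 symbols as a synonym (RefSeq, GRCm38.p6) were kept out by Entrez identifier, and no probe set with several genes named one of the 10.

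Deposited signals were taken to log2 with no further scaling. A gene was represented by its brightest probe set (mean log2 signal), values under the floor (log2 5.92) were raised to it, and a ratio against such a value is written "at least". Thresholds were 1.5-fold and 2-fold. With 1 array per genotype no test was possible, and precision is limited by that number. The members, the lists and the thresholds were chosen with earlier results of these data known. The rule named all 10 genes, up to 4 measured genes of each other list with the largest ratio, and Fcer1g, Csf2rb, Il3ra, Il5ra, Kit, Gata1, Gata2, Cebpa, Mitf and Sirt6. For the marker lists of other blood cell types the text names only some of these genes, and not always those with the largest ratio. Promoter sequences came from RefSeq. Counting was tested on simulated data with changes well past 1.5-fold, placed in brighter probe sets only. That checks the code and not the calls of dim genes. Python 3.11.15, numpy 2.4.6, pandas 2.3.3 and matplotlib 3.10.9 were used.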

Additional observations from a re-analysis of the deposited data

How the results depend on the processing

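Of the 10 genes, 6 differed by at least 1.5-fold in either direction. With arrays centred on their medians, with quantile normalization and with the median over probe sets, the same genes were called, 5 higher and 1 lower. With the floor at percentile 25 or none, Epx was added to the higher ones. Without probe sets ending in _x_at or _s_at, Hdc had none left. With the floor at percentile 75 the count was 1, the median over all 12 probe sets (0.76 as deposited) was 0, the basophil median 0.60 and the mast cell median 0.51 (Cpa3 alone), and no eosinophil gene was measured. With a pseudocount of 1 floor the median over probe sets was 0.50, the basophil median 0.70 and the eosinophil median 0.68. At 2-fold the count was 3. None of these settings reversed a called ratio. Counts over all genes, 198 higher and 304 lower, were 461 and 462 with the floor at percentile 25, 83 and 93 at percentile 75, 986 and 693 with none, 113 and 161 with the pseudocount, and 46 and 66 at 2-fold. Raising the floor removes dim genes by construction. No paired analysis was possible because each genotype had 1 array.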
